A study of Mus musculus with 8 samples.

Results

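The genes described here are the nuclear-encoded subunits of the mitochondrial respiratory chain and ATP synthase in mouse B cell precursors. They were taken by symbol: protein-coding genes whose symbols begin with Ndufa, Ndufb, Ndufc, Ndufs, Ndufv, Uqcr, Cox4 to Cox8 or Atp5, together with Sdha, Sdhb, Sdhc, Sdhd and Cyc1. Assembly factors of the Ndufaf series (8 genes) and pseudogenes (19 entries) were left out. The rule gave 89 genes, all of them among the 27179 genes of the count table: 41 for complex I, 4 for complex II, 9 for complex III, 18 for complex IV and 17 for complex V. Of the 89, 87 passed the filter on low counts and were tested, and the remaining pair, the testis-type isoforms Cox7b2 and Cox8c, held 1 read each over the 8 libraries.

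The respiratory chain sits in the inner mitochondrial membrane. Complex I takes electrons from NADH and complex II from succinate, both pass them to coenzyme Q, complex III hands them on to cytochrome c, and complex IV reduces oxygen. Complexes I, III and IV pump protons, and complex V, the ATP synthase, uses the proton gradient to make ATP. Most subunits are encoded in the nucleus and a small core set in mitochondrial DNA. Large pre-B cells are cycling cells, whereas small pre-B cells have left the cycle and rearrange their light chain genes.

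Total RNA was sequenced from bone marrow cells sorted as early large pre-B (early LPre-B; B220+, sIgM-, CD43+, FSC hi, CD2-) and as small pre-B (sPre-B; CD43lo, FSC lo, CD25+, CD2+). Every mouse, controls included, was Upf1 Flox/Flox and carried Igh B1-8hi/+, a prearranged heavy chain knocked into its locus. Ctrl mice were Mb1 +/+, and cKO mice were Mb1 Cre/+, in which Cre is expressed from the Mb1 (Cd79a) locus and deletes exons of Upf1, the RNA helicase at the centre of nonsense-mediated mRNA decay, from the B lineage. The study used C57BL/6 mice of both sexes aged 8 to 16 weeks, and each of the 4 groups had 2 libraries. The labels tie no library to a mouse, so p-values measure only the spread between these libraries. Cre replaces part of one Cd79a allele in cKO mice only, so loss of Upf1 and the Cre allele cannot be told apart.

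Libraries held 68516857 to 160426338 counts. Upf1, counted over the whole gene and so including exons outside the deletion, stood at 237 and 213 CPM (counts per 1000000 reads, with TMM scaling) in Ctrl early LPre-B, 244 and 258 in cKO early LPre-B, 186 and 198 in Ctrl sPre-B and 282 and 293 in cKO sPre-B, and the gene count therefore did not check the deletion. Cd79a stood at 543 to 640 CPM in Ctrl and 160 to 188 CPM in cKO early LPre-B. The 12 pre-B markers summed to 2388 to 10032 CPM, against 1.19 to 4.30 CPM for 7 T and NK cell markers, 10.5 to 37.6 CPM for 6 erythroid markers and 50.05 to 355 CPM for 7 myeloid markers, with none of these markers at 0 in every library. The myeloid sum was 111 to 134 CPM in Ctrl early LPre-B, 304 to 355 in Ctrl sPre-B, 50.05 to 55.6 in cKO early LPre-B and 210 to 243 in cKO sPre-B. The 4 early progenitor or Pre-pro-B markers summed to 65.7 to 69.4, 490 to 509, 42.6 to 59.7 and 492 to 627 CPM in the same order of groups, and the 5 mature B and plasma cell markers to 136 to 139, 234 to 252, 114 to 117 and 323 to 379 CPM. In early LPre-B the pre-B sum was 3639 to 3761 CPM in Ctrl and 2388 to 2514 in cKO, and that of T and NK cell markers 4.10 to 4.30 and 1.19 to 1.99 CPM. In sPre-B the pre-B sum was 9804 to 10032 CPM in Ctrl and 6786 to 6832 in cKO. Erythroid markers summed to 19.6 to 25.2 CPM in Ctrl and 10.5 to 16.1 in cKO early LPre-B and to 31.8 to 37.6 and 15.4 to 24.1 CPM in sPre-B, and 3 megakaryocyte markers to 1.63 to 19.9 CPM over all libraries. Marker sums thus moved with stage and with genotype. Each sum adds CPM, so its most abundant genes weigh most and single markers of a list may have moved the other way. The part of these markers in the results of either comparison was not tested. Xist was at 3.90 and 2.14 CPM in the replicate 2 libraries of Ctrl early LPre-B and Ctrl sPre-B and at 3126 to 3762 CPM in the other 6, so the replicates of each Ctrl group differed in this transcript of females, and 3 of the 89 genes (Ndufa1, Ndufb11 and Cox7b) are X-linked.

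The subunit genes together took 0.682% and 0.573% of all counts in Ctrl early LPre-B, 0.559% and 0.570% in cKO early LPre-B, 0.415% and 0.373% in Ctrl sPre-B and 0.369% and 0.375% in cKO sPre-B. Their summed level was 7029.6 ± 1256 CPM (SD, n = 2) in Ctrl early LPre-B and 3821 ± 284 CPM (SD, n = 2) in Ctrl sPre-B. In the cKO it was 5595 ± 110 CPM (SD, n = 2) at the early LPre-B stage and 3468 ± 99.8 CPM (SD, n = 2) at the sPre-B stage. For every complex, each sPre-B library lay below each early LPre-B library of the same genotype. In bulk RNA of this kind, fewer transcripts per cell and a different mix of cells in the gate cannot be told apart.

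**Figure D1:**
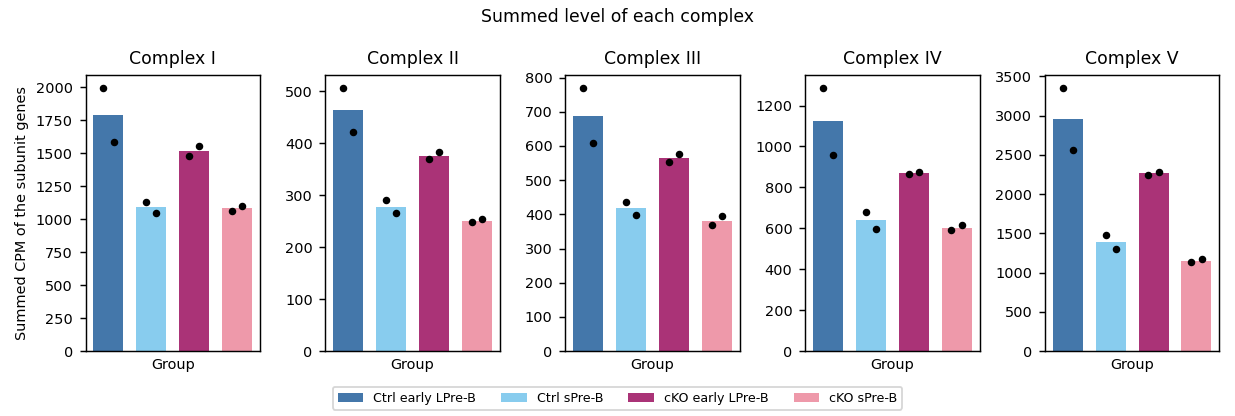
Summed CPM of the subunit genes of each complex in the 4 groups. Bars are the mean of 2 libraries and points the single libraries, on a linear axis that starts at 0. Complex V falls from 2961 to 1395 CPM in Ctrl and from 2265 to 1151 CPM in cKO.

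Levels between genes were compared per kilobase of transcript, using the median length of each gene's coding transcripts. In Ctrl early LPre-B the median was 49.5 CPM per kb over 38 genes of complex I, 67.4 over the 4 of complex II, 66.003 over the 9 of complex III, 93.2 over the 18 of complex IV and 125 over the 17 of complex V. The ATP synthase beta subunit Atp5b, which carries the catalytic sites, was at 395 ± 73.3 CPM per kb (SD, n = 2) and was the highest of complex V. In complex IV the highest was Cox8a at 269 ± 61.8 CPM per kb (SD, n = 2). Ndufa4, first assigned to complex I and now known as a complex IV-associated subunit, was at 189 ± 42.2 CPM per kb (SD, n = 2), the highest of its name series. Among the rest, the highest of complex III was the hinge subunit Uqcrh at 155 ± 26.1 and the highest of complex II the flavoprotein Sdha at 86.0 ± 9.12 CPM per kb (SD, n = 2 each). At the low end stood Ndufa4l2 at 0.207 in complex I, the membrane anchor Sdhc at 28.1 in complex II, Uqcrb at 51.9 in complex III and Atp5g1 at 14.7 CPM per kb in complex V.

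The first comparison asked how the subunit genes differ between the cycling and the resting stage in mice with Upf1. In Ctrl mice 75 of the 87 genes tested fell from early LPre-B to sPre-B and 1, Cox6a2, rose (edgeR quasi-likelihood test, adjusted P under 0.05 over 17700 genes). The share called lower was 86.2% of the subunit genes and 31.1% of all genes tested, and 29.1% of all genes were called higher. The median Log2FC (log2 fold change) was -0.87 for the subunit genes and 0.02 for all genes. All 4 genes of complex II fell (median -0.78), as did all 9 of complex III (median -0.84) and all 17 of complex V (median -1.11). Of complex I, 35 of 41 fell (median -0.85), and of complex IV 10 of 16 (median -0.99). Taking only the 61 tested genes whose span overlaps no other annotated protein-coding, lincRNA, antisense or processed-transcript gene, 52 fell and the median was -0.96.

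**Figure D2:**
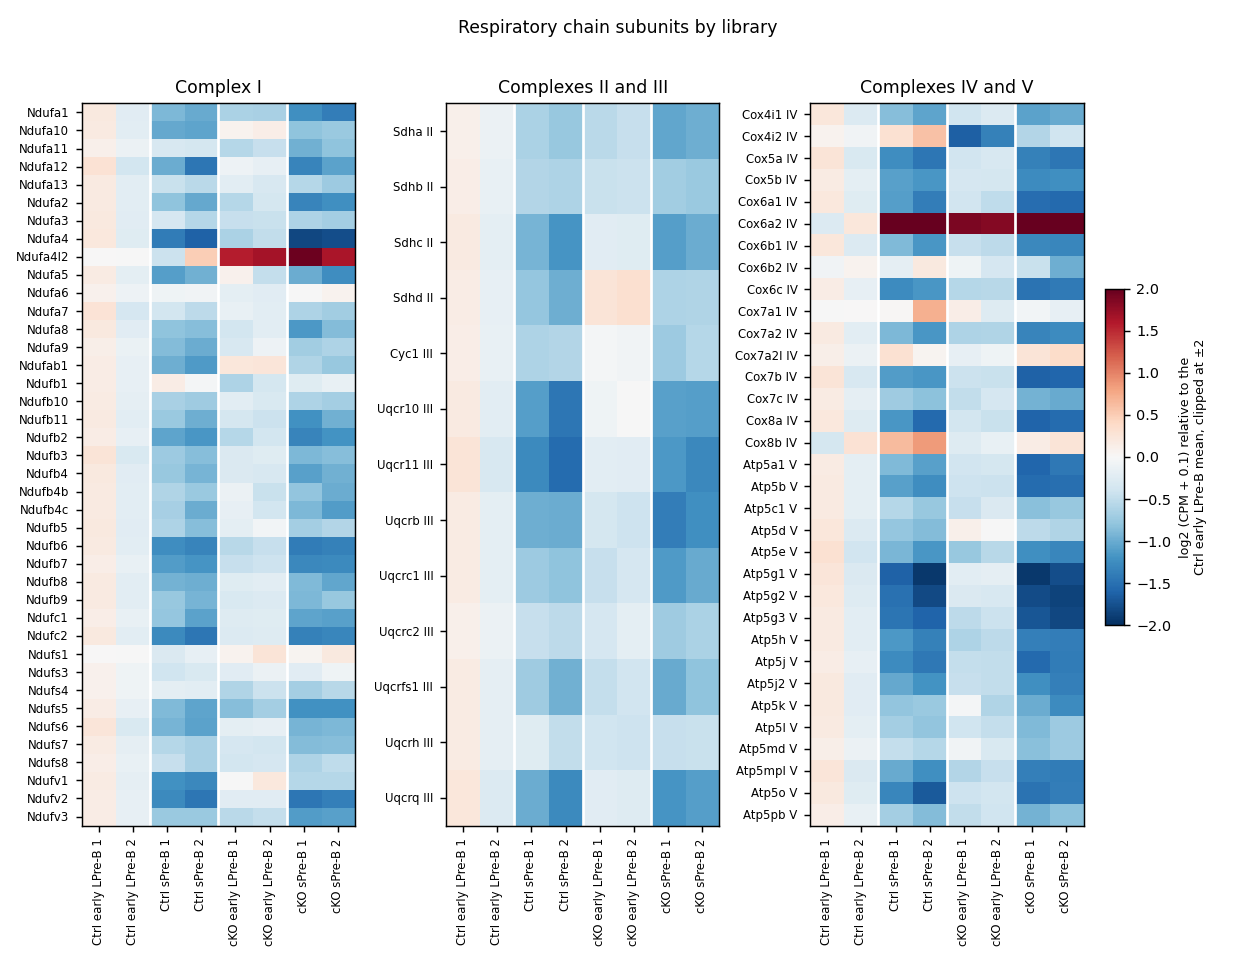
Level of tested subunit genes in the 8 libraries, as log2(CPM + 0.1) relative to the Ctrl early LPre-B mean, clipped at 2 in both directions (blue lower, red higher). Most rows are blue in the 4 sPre-B columns. Cox6a2 is red in the sPre-B columns of both genotypes and Ndufa4l2 in the 4 cKO columns.

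The steepest falls were in the 3 genes Atp5g1, Atp5g2 and Atp5g3, which encode the same mature c subunit, the rotating ring of the ATP synthase, with different import sequences. Atp5g1 stood at 46.5 and 32.0 CPM in Ctrl early LPre-B and at 12.7 and 10.3 CPM in Ctrl sPre-B (Log2FC = -1.77, SE 0.19, edgeR adjusted P = 6.25e-05). Atp5g2 went from 180 and 131 to 55.0 and 44.5 CPM (Log2FC = -1.64, SE 0.16, edgeR adjusted P = 3.43e-05). Atp5g3 went from 199 and 153 to 63.9 and 58.1 CPM (Log2FC = -1.53, SE 0.13, edgeR adjusted P = 1.77e-05). In none of the 3 did a sPre-B library reach an early LPre-B library. All other genes of complex V fell less, from Atp5o at -1.48 to Atp5md at -0.53. Of the catalytic core, the alpha subunit Atp5a1 was at 941 and 735 CPM in early LPre-B and 454 and 394 CPM in sPre-B, the beta subunit Atp5b at 856 and 657 against 355 and 320 CPM, and the gamma subunit Atp5c1, the shaft, at 165 and 127 against 97.9 and 85.9 CPM. Their Log2FC was -0.98, -1.17 and -0.66 in that order, all called.

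Promoter windows from RefSeq (build GRCm38.p6, 250 bases before to 50 after the start) were found for 71 of the 89 genes, as 76 windows. Each was searched on both strands for a core of the NRF1 site (GCGCATGC), of the ETS site bound by GABP (CCGGAAGT) and of the YY1 site (AAGATGGC), the factors best known for respiratory gene promoters. The NRF1 core was in 13.2% of the subunit windows and 2.71% of all 32851 windows, the YY1 core in 13.2% and 2.75%, and the ETS core in 6.58% and 3.89%. In windows of genes tested here the shares were 4.58%, 3.82% and 6.90% in that order. The windows of the c-subunit genes, the steepest falls, and of 3 genes that serve as comparison below, are given 5′ to 3′ with a motif match in capitals, where the NRF1 core and its reverse complement overlap in a run of 10 bases in Atp5g2 and Cox6a1 and Ndufa6 holds a single match of 8 bases.
Atp5g1 promoter, chr11:96075582-96075881, minus strand: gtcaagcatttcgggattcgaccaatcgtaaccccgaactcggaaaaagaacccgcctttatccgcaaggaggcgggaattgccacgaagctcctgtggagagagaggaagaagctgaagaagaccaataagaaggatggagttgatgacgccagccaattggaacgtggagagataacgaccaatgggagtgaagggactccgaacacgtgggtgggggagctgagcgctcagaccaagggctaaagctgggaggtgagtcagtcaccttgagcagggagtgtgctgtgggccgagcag
Atp5g2 promoter, chr15:102670998-102671297, minus strand: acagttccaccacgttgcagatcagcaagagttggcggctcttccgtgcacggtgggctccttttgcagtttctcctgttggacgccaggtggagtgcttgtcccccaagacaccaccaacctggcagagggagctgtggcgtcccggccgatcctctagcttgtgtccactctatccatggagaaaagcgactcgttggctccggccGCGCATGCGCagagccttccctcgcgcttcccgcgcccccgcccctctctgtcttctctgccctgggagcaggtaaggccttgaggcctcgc
Atp5g3 promoter, chr2:73911277-73911576, minus strand: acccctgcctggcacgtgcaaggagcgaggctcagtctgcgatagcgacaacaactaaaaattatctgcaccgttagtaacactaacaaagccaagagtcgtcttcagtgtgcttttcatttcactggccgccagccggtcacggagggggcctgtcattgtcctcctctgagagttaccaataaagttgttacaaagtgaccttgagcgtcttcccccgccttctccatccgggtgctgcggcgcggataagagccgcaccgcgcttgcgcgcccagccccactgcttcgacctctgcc
Cox6a1 promoter, chr5:115348909-115349208, minus strand: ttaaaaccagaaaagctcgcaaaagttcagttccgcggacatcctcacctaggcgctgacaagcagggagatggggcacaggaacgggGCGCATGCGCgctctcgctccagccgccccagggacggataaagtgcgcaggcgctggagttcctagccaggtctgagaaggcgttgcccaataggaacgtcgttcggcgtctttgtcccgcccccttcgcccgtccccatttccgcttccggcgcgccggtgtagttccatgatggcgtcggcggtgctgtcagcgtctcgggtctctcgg
Ndufa6 promoter, chr15:82354242-82354541, minus strand: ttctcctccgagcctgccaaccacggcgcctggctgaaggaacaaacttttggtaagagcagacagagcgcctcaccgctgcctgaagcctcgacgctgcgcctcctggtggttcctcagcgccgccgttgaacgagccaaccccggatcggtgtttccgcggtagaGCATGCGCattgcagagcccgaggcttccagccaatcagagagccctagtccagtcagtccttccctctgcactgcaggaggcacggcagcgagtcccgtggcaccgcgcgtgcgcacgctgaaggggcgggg
Cox7a2l promoter, chr17:83514284-83514583, minus strand: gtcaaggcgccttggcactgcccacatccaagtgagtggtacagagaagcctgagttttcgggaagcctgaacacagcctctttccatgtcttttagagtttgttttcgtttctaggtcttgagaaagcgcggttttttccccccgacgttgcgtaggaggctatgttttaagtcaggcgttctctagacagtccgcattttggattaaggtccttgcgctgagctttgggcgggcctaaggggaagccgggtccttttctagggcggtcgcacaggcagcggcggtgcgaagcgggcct
Of the c-subunit genes Atp5g2 alone held a match, and all 3 fell. Cox6a1 and Ndufa6 both held the NRF1 core, and Cox6a1 fell while Ndufa6 was at 31.6 and 27.6 CPM in Ctrl early LPre-B and 28.0 and 28.1 CPM in Ctrl sPre-B (Log2FC = -0.08, not called). Ndufa6 was chosen for this contrast after its values were seen. It alone of the 10 subunit genes with the NRF1 core was not called, and the others fell. Over all windows, 24 tested genes with any of these cores had a median Ctrl Log2FC of -0.81 and 22 of them fell, and 46 without had a median of -0.96 and 40 fell. A match of letters is a description of the window and not a bound site.

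Among the Nduf symbols, counted here as complex I, the steepest fall was in the complex IV-associated Ndufa4, at 101 and 73.1 CPM in Ctrl early LPre-B and 32.8 and 28.3 in Ctrl sPre-B (Log2FC = -1.51, SE 0.15, edgeR adjusted P = 4.43e-05). Next came Ndufc2 and Ndufv2, both with a Log2FC of -1.36. Ndufv1, the FMN-binding subunit where NADH is oxidised, was at 82.6 and 65.2 CPM in early LPre-B and 31.9 and 30.2 CPM in sPre-B (Log2FC = -1.25, SE 0.13, edgeR adjusted P = 4.71e-05). Ndufs1, its neighbour in the electron path, was at 95.7 and 93.8 against 77.8 and 84.5 CPM (Log2FC = -0.22, SE 0.10, edgeR adjusted P = 0.0771). The libraries of Ndufs1 did not overlap between stages, but the difference did not pass the test. The other 5 genes of complex I that were not called were Ndufa4l2, Ndufa6, Ndufa7, Ndufb1 and Ndufs4, named after their values were seen, with Log2FC between -0.44 and 0.13. Ndufb4b and Ndufb4c are near-identical copies of Ndufb4, and their values of -0.68 and -0.83 beside its -0.85 may share reads. Among core and accessory subunits, a split made after the values were seen, 6 of the 7 core genes fell with a median of -0.55 and 29 of 34 accessory genes, Ndufa4 and Ndufa4l2 included, with a median of -0.85.

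In complex II, which is also an enzyme of the tricarboxylic acid cycle, Sdha was at 268 and 231 CPM in Ctrl early LPre-B and 161 and 148 in Ctrl sPre-B (Log2FC = -0.69, SE 0.10). The iron-sulfur subunit Sdhb was at 94.6 and 78.1 against 57.4 and 56.1 CPM (Log2FC = -0.61, SE 0.10). Sdhc fell most, by 1.05 on the log2 scale. In complex III the Rieske protein Uqcrfs1 was at 101 and 79.1 against 54.8 and 45.9 CPM (Log2FC = -0.84, SE 0.14), and cytochrome c1, Cyc1, at 106 and 87.5 against 63.2 and 64.7 CPM (Log2FC = -0.60, SE 0.11). Uqcrh, the highest of the complex per length, fell least (Log2FC = -0.36, SE 0.13, edgeR adjusted P = 0.0351). That call was lost without the replicate 1 library of Ctrl early LPre-B and in 5 of the other alternatives.

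In complex IV 10 of 16 tested genes fell, 5 were not called and 1 rose. Its widely expressed subunits fell: Cox4i1 from 224 and 158 to 106 and 91.3 CPM (Log2FC = -0.95), Cox5a, a subunit on the matrix side, from 115 and 77.2 to 40.6 and 35.2 CPM (Log2FC = -1.34), and the zinc-binding Cox5b from 88.9 and 69.1 to 37.2 and 35.4 CPM (Log2FC = -1.12). The others of this kind, Cox6a1, Cox6b1, Cox6c, Cox7a2, Cox7b, Cox7c and Cox8a, fell by 0.77 to 1.35 on the log2 scale. Cox6a2, the heart and skeletal muscle isoform of subunit 6A, rose from 2.04 and 2.91 CPM in Ctrl early LPre-B to 16.4 and 20.7 CPM in Ctrl sPre-B (Log2FC = 2.92, SE 0.21, edgeR adjusted P = 7.87e-06). Relative to the CPM of Cox6a1 this was 1.65% and 3.201% at the first stage and 33.0% and 50.6% at the second. Cox6a2 lies within the span of the integrin gene Itgad, and reads were counted without regard to strand, so reads of the pair may not be told apart. Itgad itself was at 1.84 and 2.97 CPM in Ctrl early LPre-B and 19.7 and 31.8 CPM in Ctrl sPre-B.

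Cox7a2l, a paralogue of Cox7a2, was at 163 and 138 CPM in Ctrl early LPre-B and at 186 and 157 CPM in Ctrl sPre-B (Log2FC = 0.19, SE 0.12, edgeR adjusted P = 0.207). Its libraries overlapped between stages. The tissue-restricted isoforms Cox4i2, Cox6b2, Cox7a1 and Cox8b stayed below 5 CPM in every library and did not pass the test in Ctrl, with Log2FC of 0.54, 0.02, 0.43 and 0.86. Cox8b, for example, was at 0.398 and 0.679 CPM and then 0.887 and 1.05 CPM (SE 0.36).

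**Figure D3:**
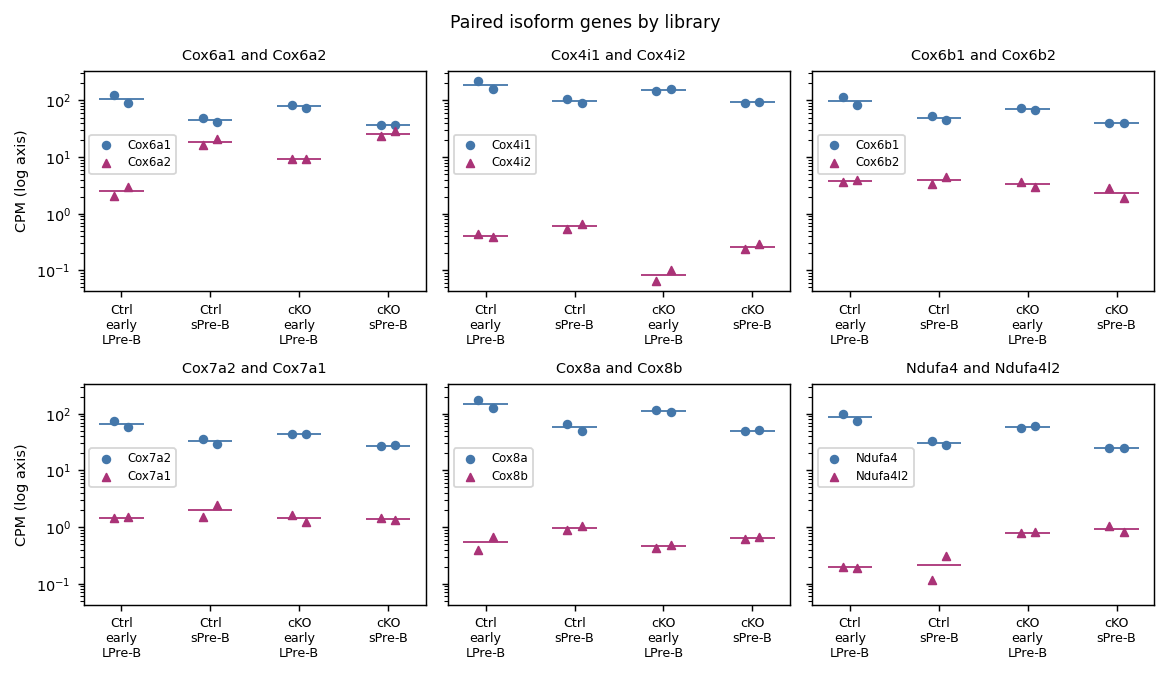
CPM of paired isoform genes in each library (points, 2 a group) with the group mean (line), on a log axis. The widely expressed partner, in blue, falls at the sPre-B stage in each pair, while Cox6a2 climbs from 2.04 to 2.91 CPM in Ctrl early LPre-B to 23.1 to 28.5 CPM in cKO sPre-B and Ndufa4l2 sits higher in both cKO groups.

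The second comparison asked the same of the cKO, whose 4 libraries are not shared with the first. From early LPre-B to sPre-B 71 genes fell and 3 rose, against 31.1% of all genes called lower and 31.6% called higher. The median Log2FC was -0.68 for the subunit genes and 0.05 for all genes. Of complex I 32 of 41 fell, of complex II 4 of 4, of complex III 8 of 9, of complex IV 10 of 16 and of complex V 17 of 17. The genes were largely shared, with 70 lower in both genotypes, 93.3% of those in Ctrl and 98.6% of those in cKO. Across the 87 genes the Log2FC in Ctrl and cKO had Pearson's r = 0.90 and Spearman's rho = 0.92, and across all 17700 genes r = 0.81 and rho = 0.83. These describe genes of the same libraries, which are not independent replicates.

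Atp5g1, Atp5g2 and Atp5g3 were again the steepest, with Log2FC of -1.65, -1.52 and -1.30. Atp5g1, for instance, was at 33.8 and 34.6 CPM in cKO early LPre-B and 10.3 and 11.5 CPM in cKO sPre-B. Cox6a2 rose from 9.39 and 9.08 to 23.1 and 28.5 CPM (Log2FC = 1.48, SE 0.20, edgeR adjusted P = 0.000217), beside Itgad at 3.197 and 3.98 and then 71.7 and 65.5 CPM. Cox7a2l went from 134 and 142 to 179 and 195 CPM (Log2FC = 0.44, SE 0.12, edgeR adjusted P = 0.0107). Cox4i2, an isoform of subunit 4 known from lung and from low oxygen, went from 0.0643 and 0.1001 to 0.239 and 0.288 CPM, on 7 and 13 reads against 22 and 36 (Log2FC = 1.66, SE 0.45, edgeR adjusted P = 0.0107). The calls of Cox7a2l and Cox4i2 were both lost without replicate 1 of cKO early LPre-B (adjusted P = 0.0651 and 0.0685) and without replicate 2 of cKO sPre-B (adjusted P = 0.0653 and 0.0536).

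**Figure D4:**
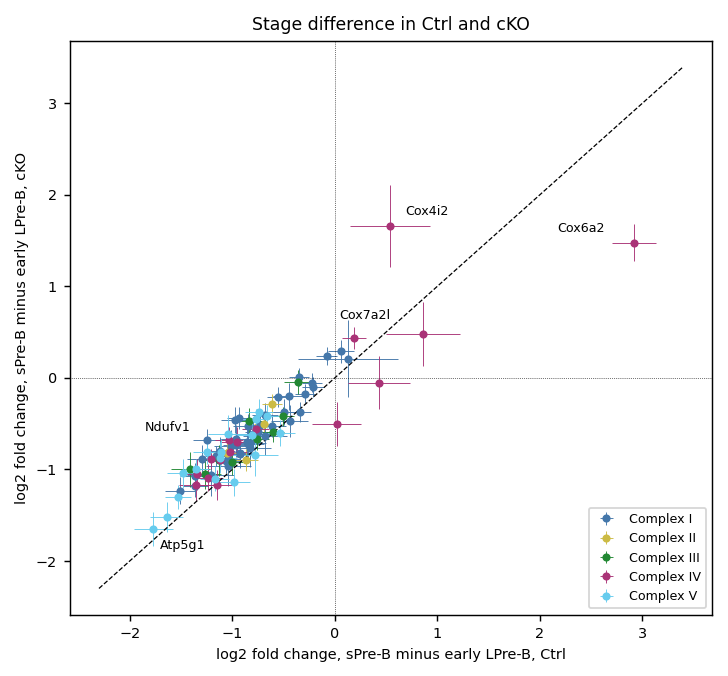
Log2FC between sPre-B and early LPre-B in Ctrl (x axis) and cKO (y axis) for the 87 tested genes, coloured by complex, with bars of 1 SE and the line of equality dashed. Most points lie in the lower left, and Cox6a2 is far right at 2.92 and 1.48.

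The third comparison set cKO against Ctrl at the early LPre-B stage. Here 31 genes were lower and 2 were higher in the cKO, against 16.9% of all genes called lower and 14.5% called higher, and the median Log2FC was -0.34 against -0.06 for all genes. The lower genes were 12 of complex I, 2 of complex II, 3 of complex III, 6 of complex IV and 8 of complex V. Both cKO libraries lay below both Ctrl libraries in 58 of the 87 genes, and in 36.4% of all genes. The Ctrl libraries themselves differed: replicate 1 was above replicate 2 in 83 of the 87 genes, by a median of 1.30-fold, and in 55.7% of all genes. Without Ctrl replicate 1 of this stage 5 genes were lower and the median was -0.11, and without Ctrl replicate 2 there were 52 and -0.46. Leaving out replicate 1 or 2 of cKO early LPre-B left 3 and 8, leaving out either cKO sPre-B library left 20, and a fit of the 4 early LPre-B libraries alone gave 16. When libraries were scaled by their totals alone 13 were lower, with a median of -0.16 and a median of all genes of 0.11. Cytosolic ribosomal protein genes also stood higher in replicate 1 of Ctrl early LPre-B, in 76 of 76 genes by a median log2 ratio of 0.45. The part of that library in the counts was measured only by leaving it out.

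Ndufs5, an accessory subunit of complex I, was at 33.4 and 26.9 CPM in Ctrl and 16.8 and 18.9 CPM in cKO early LPre-B (Log2FC = -0.76, SE 0.14, edgeR adjusted P = 0.00454). Its groups did not overlap. Atp5e, the epsilon subunit of ATP synthase, was at 78.4 and 48.8 against 37.7 and 43.3 CPM (Log2FC = -0.65, SE 0.20, edgeR adjusted P = 0.0367), a call lost in 7 alternatives, among them the fit without Ctrl replicate 1. Cox4i2 was at 0.434 and 0.385 against 0.0643 and 0.1001 CPM, on 60 and 30 reads against 7 and 13 (Log2FC = -2.29, SE 0.44, edgeR adjusted P = 0.00541). Of the core subunits, Sdha was at 268 and 231 against 171 and 181 CPM (Log2FC = -0.50), Sdhb was lower by Log2FC = -0.44 and Uqcrfs1 by Log2FC = -0.43, while Ndufs1, Ndufv1, Cyc1, Cox4i1, Cox5a, Cox5b, Atp5a1, Atp5b and Atp5c1 were not called, with Log2FC between -0.42 and 0.17. The call of Uqcrfs1 was lost in 7 alternatives, that of Sdhb in 3 and that of Sdha in 1. Cox6a2 was higher in the cKO, at 9.39 and 9.08 CPM against 2.04 and 2.91 (Log2FC = 1.91, SE 0.20, edgeR adjusted P = 0.000329), while Itgad did not pass the test (Log2FC = 0.60, adjusted P = 0.136). Ndufa4l2, a paralogue of Ndufa4 known as a hypoxia-induced gene, was at 0.772 and 0.831 CPM in cKO and 0.195 and 0.192 in Ctrl, on 84 and 108 reads against 27 and 15 (Log2FC = 2.04, SE 0.46, edgeR adjusted P = 0.0103). That call was lost without Ctrl replicate 1, at adjusted P = 0.0538.

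**Figure D5:**
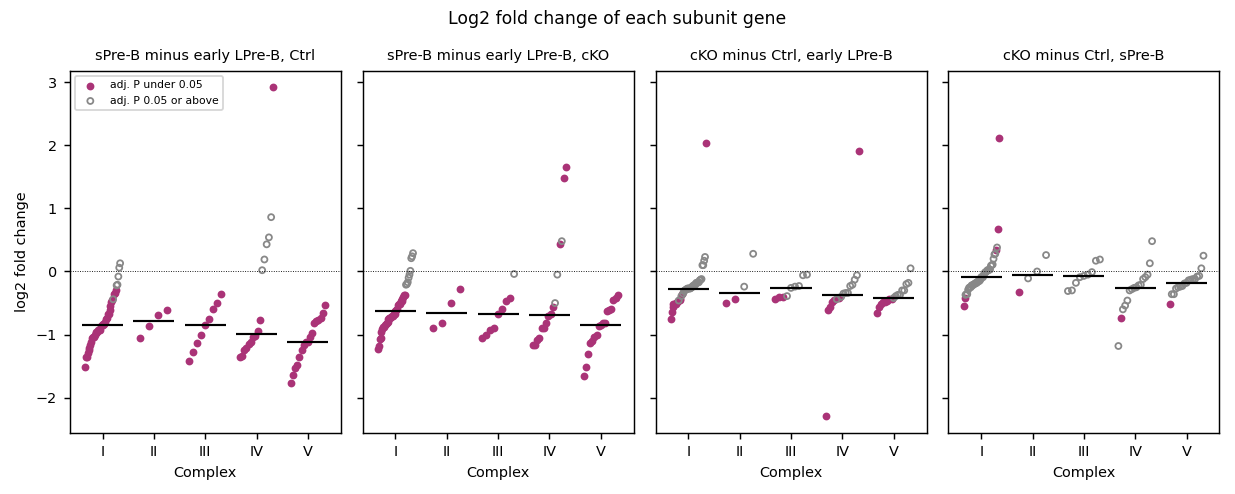
Log2FC of each tested gene by complex in the 4 pairwise comparisons, with filled points at adjusted P under 0.05, open points otherwise and a line at the median of each complex. The medians of the stage comparisons lie below those of the genotype comparisons in each complex.

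At the sPre-B stage 5 genes were lower and 3 higher in the cKO, against 14.9% of all genes called lower and 19.8% called higher. The share of subunit genes called lower was 5.75%, and their median Log2FC was -0.14 against 0.01 for all genes. Ndufv1 was at 49.8 and 49.6 CPM in cKO and 31.9 and 30.2 CPM in Ctrl sPre-B (Log2FC = 0.68, SE 0.13, edgeR adjusted P = 0.00387). Ndufs1 was at 97.9 and 108 against 77.8 and 84.5 CPM (Log2FC = 0.34, SE 0.10, edgeR adjusted P = 0.0252), a call lost in 3 alternatives: without Ctrl sPre-B replicate 1, without cKO sPre-B replicate 2 and without both Ctrl replicate 2 libraries. Ndufa4l2 was at 1.04 and 0.815 against 0.118 and 0.312 CPM (Log2FC = 2.12, SE 0.46, edgeR adjusted P = 0.00831). Ndufa4l2 overlaps the serine hydroxymethyltransferase gene Shmt2, which was at 86.1 and 82.0 CPM in cKO and 26.7 and 25.9 CPM in Ctrl sPre-B, and at 336 and 311 against 118 and 85.8 CPM in early LPre-B. From early LPre-B to sPre-B Shmt2 fell in Ctrl by 1.95 on the log2 scale, and Ndufa4l2 had a Log2FC of 0.13. Whether reads of Shmt2 were counted for Ndufa4l2 was not tested.

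The 5 lower genes were Ndufa11 and Ndufs4 of complex I, Sdha, Cox6b2 and Atp5a1. Ndufa11 was at 23.9 and 26.8 CPM in cKO and 37.2 and 36.8 CPM in Ctrl sPre-B (Log2FC = -0.54, SE 0.11, edgeR adjusted P = 0.00616). Atp5a1 was at 280 and 309 against 454 and 394 CPM (Log2FC = -0.52, SE 0.15, edgeR adjusted P = 0.0248). Cox6b2, the testis isoform of subunit 6B, was at 2.80 and 1.89 against 3.37 and 4.38 CPM (Log2FC = -0.73, SE 0.25, edgeR adjusted P = 0.0489), and 12 alternatives took the call away. Ndufa11, Ndufs4 and Sdha were also lower at the early LPre-B stage, which is 60.0% of the 5 and 9.68% of the 31, and Ndufa4l2 was higher at both stages. The sPre-B call of Sdha was lost in 7 alternatives, at adjusted P of 0.055 to 0.183 by edgeR, that of Ndufs4 in 4, that of Atp5a1 in 3 and that of Ndufa11 in 1. These genotype comparisons share no library. The count of lower genes moved between 1 and 16 as single libraries were left out: it was 15 and 16 without replicate 1 or 2 of Ctrl early LPre-B, 1 and 2 without replicate 1 or 2 of Ctrl sPre-B, 3 without either cKO early LPre-B library and 1 without either cKO sPre-B library.

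Whether the stage difference itself depended on genotype was tested as an interaction (the cKO stage difference minus that of Ctrl). By edgeR's quasi-likelihood test 0 subunit genes passed in the positive direction, against 2.64% of all genes, and DESeq2 also gave 0. At an unadjusted P under 0.05 there were 6, against 13.3% of all genes. The median was 0.21 for the subunit genes and 0.07 for all genes. For the subunit genes it was -0.07 without replicate 1 of Ctrl early LPre-B, and with libraries scaled by their totals alone it was 0.09, beside -0.04 for all genes. In the negative direction Cox6a2 passed (Log2FC = -1.43, edgeR adjusted P = 0.0297), against 1.6% of all genes. Its stage difference was 2.92 in Ctrl and 1.48 in cKO. The call was lost in 5 of the 8 fits that left out a library, at adjusted P of 0.0625 to 0.103.

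Genes that work with these complexes were described from fixed lists. For the stage comparison in Ctrl their counts stand beside 31.1% of all genes called lower and 29.1% called higher. Of 18 genes of the tricarboxylic acid cycle and pyruvate dehydrogenase, 13 fell between the stages in Ctrl (median -0.51), among them citrate synthase Cs at -0.69 and Idh3a at -1.46. Of 55 tested assembly factors 24 fell and 4 rose (median -0.27), and of 78 mitochondrial ribosomal proteins 63 fell and 2 rose (median -0.65). Cytosolic ribosomal protein genes fell in 75 of 76 (median -0.96), and the 7 cycling genes, Mki67 and Top2a among them, all fell (median -3.18). Of 16 regulators 7 fell and 3 rose (median -0.26), not read here as a result about the list. Among them Myc went from 60.9 and 48.1 to 2.27 and 1.99 CPM, the coactivator Ppargc1b from 8.22 and 6.72 to 1.11 and 0.397 CPM, and Esrra from 31.7 and 27.9 to 55.6 and 57.1 CPM. Nrf1 was at 120 and 129 against 111 and 116 CPM (Log2FC = -0.13) and did not pass the test. The 13 subunits encoded in mitochondrial DNA were listed at 0 in every library and could not be assessed.

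In the genotype comparisons the list counts stand beside 14.5% of all genes called higher and 16.9% called lower in cKO early LPre-B. In cKO sPre-B these shares were 19.8% and 14.9%. Of the 18 genes of the tricarboxylic acid cycle and pyruvate dehydrogenase 1 was higher and 6 were lower in cKO early LPre-B (median -0.20). In cKO sPre-B 1 was higher and 5 were lower (median -0.06). Of the 78 mitochondrial ribosomal proteins 8 were higher and 5 lower at the first stage and 11 higher and 8 lower at the second. Of the 76 cytosolic ribosomal protein genes 3 passed the test in early LPre-B, all of them higher (median of the list -0.18), and 1 in each direction in sPre-B. The 16 regulators had 2 higher and 4 lower and then 3 in each direction. At the early LPre-B stage 13 of 55 assembly factors were higher in the cKO and 1 lower, and at the sPre-B stage 17 were higher and 3 lower. These are 23.6% and 30.9% of the list called higher, beside 14.5% and 19.8% of all genes. Of them 12 were higher at both stages: Acad9, Foxred1, Ndufaf5, Ndufaf6, Nubpl and Timmdc1 for complex I, Bcs1l and Uqcc1 for complex III, Cox18, Sco1 and Surf1 for complex IV, and Atpaf2 for the ATP synthase. No share of all genes called at both stages is given here, for this list or the next. Ndufaf6 was at 5.95 and 5.24 CPM in Ctrl and 19.3 and 19.6 CPM in cKO early LPre-B, and at 2.38 and 2.37 against 10.7 and 9.60 CPM in sPre-B (Log2FC = 1.80 and 2.10). Cox18, which inserts a core subunit of complex IV, was at 9.81 and 8.57 against 25.5 and 25.1 CPM and at 4.72 and 5.47 against 15.7 and 15.1 CPM. Of 19 genes for mobile carriers and electron donors 3 were lower at the early LPre-B and 4 at the sPre-B stage, beside 16.9% and 14.9% of all genes. At each stage 9 were higher, 8 of them at both, among these the coenzyme Q synthesis genes Coq4 (Log2FC = 1.18 and 1.26), Coq6 (1.27 and 1.19) and Coq8b (1.51 and 1.45). Etfa, a subunit of the electron transfer flavoprotein, was lower at both (Log2FC = -0.52 and -0.41). Cytochrome c, Cycs, was at 72.2 and 64.9 against 69.3 and 66.1 CPM in early LPre-B and did not pass the test at either stage.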

How the data were processed

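The deposited values are read counts per Entrez gene for 8 libraries of sorted mouse bone marrow cells (2 for each of 4 groups). Per the labels and the study's methods, RNA was depleted of rRNA and made into directional libraries, reads were trimmed with Trim Galore, aligned to mm10 with HISAT2 as unstranded pairs, and counted with featureCounts; their versions are not given in the sources used here. The authors deposited these counts without normalization. Genes were named from RefSeq (25275 of 27179), Ndufb1 under an older identifier. Genes with low counts were removed (filterByExpr, 17700 kept), libraries were scaled by TMM, and all 8 libraries were fitted by group with the quasi-likelihood test of edgeR 4.0.16 in R 4.3.3 (common biological coefficient of variation 0.174), P-values being adjusted by the Benjamini-Hochberg method across all 17700. Genes were called at adjusted P under 0.05. SE was taken as the Log2FC divided by the square root of F. CPM are TMM-scaled. Counting unstranded reads means that overlapping genes may share reads. SDs here reflect the spread of 2 libraries, and SEs come from the fit to all 8. Library totals ran from 68516857 to 160426338 counts. The procedure was tested on simulated data.

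The subunit genes and lists were chosen with earlier results of these data known. Genes named with values were, in each comparison, the 3 largest increases and decreases among called subunit genes. Also named were 12 core subunits, the isoform families, and the highest and lowest gene per length in each complex. Others were named after their values were seen, also where this is not said beside them, or serve as examples of a list. Alternatives were DESeq2 1.42.0, edgeR's likelihood-ratio test, other scalings, no filter, immunoglobulin genes (260) left out, a replicate block, only the 4 libraries compared, and libraries left out. Protein sequences were not used here. Values of some withheld items are not reported here.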

Additional observations from a re-analysis of the deposited data

Results flagged for a closer look

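The rise of Cox6a2 from early LPre-B to sPre-B differed between genotypes by an interaction term of -1.43 on the log2 scale (SE 0.28, edgeR quasi-likelihood adjusted P = 0.0297). It was 2.92 in Ctrl and 1.48 in cKO, and the cKO early LPre-B libraries, at 9.39 and 9.08 CPM, lay between the Ctrl early LPre-B libraries at 2.04 and 2.91 CPM and the Ctrl sPre-B libraries at 16.4 and 20.7 CPM. Itgad, the gene that spans Cox6a2, had an interaction term of 0.82 (adjusted P = 0.26), and its part in the counts of Cox6a2 was not tested.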

How the results depend on the processing

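The stage medians were negative, and the counts of lower genes within 1.5 times those reported, in each alternative run for both genotypes. Leaving out single libraries gave 65 to 76 lower genes in Ctrl (median -1.0 to -0.60; 1 to 2 higher) and 57 to 71 in cKO (median -0.71 to -0.66; 1 to 4 higher). At the early LPre-B stage it gave 3 to 52 lower genes in cKO against Ctrl (median -0.46 to -0.11; 2 to 4 higher) and at the sPre-B stage 1 to 16 (median -0.20 to -0.08; 2 to 5 higher). For the interaction it gave 0 to 1 lower genes and medians of -0.07 to 0.32, with the reversed value of -0.07 obtained without replicate 1 of Ctrl early LPre-B. With library totals alone, 3 genes rose in Ctrl, 5 in cKO (median -0.60), 5 were higher and 13 lower in early LPre-B cKO, and 8 higher in sPre-B cKO. With upper-quartile factors 3 rose in Ctrl, 5 in cKO (median -0.61), and 9 were lower in sPre-B cKO. With RLE factors the cKO stage median was -0.70 and 8 were lower in sPre-B cKO, and DESeq2 gave -0.70 and 10. The likelihood-ratio test gave 2 rising in Ctrl. The cKO stage median was -0.69 without a filter, -0.67 without immunoglobulin genes and -0.72 with the 4 libraries compared, where 16 were lower in early LPre-B cKO. With both Ctrl replicate 2 libraries left out, so that each Ctrl group had 1 library assumed to vary like the others, the cKO stage median was -0.70, 54 genes were lower in early LPre-B and 20 in sPre-B cKO (median -0.24), and the interaction had 0 (edgeR). Causes of these differences were not tested.

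The labels share replicate numbers, but correlations of same-numbered deviations ran from 0.0514 to 0.395 over all genes, with 4 of 6 pairs of groups over 0.1, and from -0.267 to 0.613 over the subunit genes (0.613 between the Ctrl and 0.482 between the cKO stages). The 2 pairs below 0.1 were between genotypes. Within genotype the values were 0.395 and 0.254, and Xist was near 0 in replicate 2 of both Ctrl stages. The labels do not say whether same-numbered libraries of a genotype share a mouse, and the fits without the block are reported. With the replicate block 77 genes fell and 2 rose in Ctrl, 71 fell and 3 rose in cKO, and 5 were higher in sPre-B cKO.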

Other observations

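Cox4i1 overlaps Emc8, which was at 59.3 and 54.3 CPM in Ctrl and 82.5 and 87.4 CPM in cKO early LPre-B (Log2FC = 0.58, edgeR adjusted P = 0.00141). Cox4i1 was at 224 and 158 against 144 and 157 CPM and did not pass the test there.

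Transcript length had little relation to the stage difference in Ctrl across the 84 subunit genes with a length (Pearson's r = -0.07, Spearman's rho = 0.02). In the genotype comparison at the sPre-B stage rho was 0.30 and r 0.21. These are correlations across genes, which share libraries and are not independent replicates.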
